A study of Mus musculus with 10 samples.

Results

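The genes described here are 36 ER chaperones, ER stress sensors and heat shock proteins, chosen by name from the 14626 named genes of the deposited table. They fall into 4 classes, with 14 ER chaperones, 8 ER sensors and degradation genes, 7 cytosolic chaperones and 7 genes of the small heat shock protein class, which here includes Bag3. Hearts of 5 wild-type (WT) mice and 5 mice in which Lmna was knocked out (Lmna KO) were profiled by RNA sequencing, 1 library per mouse, to find how the cardiac transcriptome differs between the genotypes. All mice were of C57BL/6 background and 14 days old, and no treatment is named in the labels. The product of Lmna is lamin A/C, a protein of the nuclear envelope. Both copies are marked as lost in the series' description, which names neither the allele design nor any Cre driver. Whole heart tissue was used, so a lower share of a cell type and less RNA per cell cannot be told apart in any result below.

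Chaperones hold unfolded or partly folded proteins until they reach their final shape. In the endoplasmic reticulum (ER), BiP, the product of Hspa5, binds nascent secretory proteins and keeps the stress sensors IRE1, PERK and ATF6 silent. When unfolded proteins build up, BiP is released and the sensors start the unfolded protein response, which raises the ER chaperones themselves. In the cytosol the heat shock factor HSF1 controls the inducible chaperones. In heart muscle small heat shock proteins and their partner Bag3 protect structural proteins such as desmin, titin and filamin C.

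Values are signal units, CPM (reads scaled by the effective library size) as the authors deposited them, and 1 read was worth 0.0447 to 0.0672 units. Library totals were 15259545 to 22146030 reads. Lmna averaged 106 ± 2.95 in the 5 WT hearts and 33.7 ± 10.3 in the 5 knockout hearts (± SD), and every knockout library lay below every WT library (limma adjusted p = 0.00461). All 10 cardiomyocyte markers examined were present, with a summed signal of 86755 to 93550 in WT. Knockout library 5 stood apart. Its log values correlated with those of WT hearts at r = 0.905 on average. Knockout library 2 reached 0.962, and knockout libraries 1, 3 and 4 reached 0.982 to 0.985, so these 4 were not uniform either. The log2 changes of members are given with and without library 5. In that library the summed signal of 10 cardiomyocyte markers was 49948, against 50562 in knockout library 2 and 81971 to 85437 in the remaining knockouts. The summed signal of 8 fibroblast markers was 1992 in knockout library 5, against 4241 to 6447 in the other knockouts and 4950 to 6259 in WT. Single markers went both ways in knockout library 5. Tnnt2 was 8581 there against a WT mean of 4266, Actn2 2757 against 1710, Myoz2 2366 against 1396 and the fibroblast marker Dcn 1378 against 729, whereas Myh6 was 16388 against 44400 and Actc1 792 against 9773. The remaining cardiomyocyte markers also lay below their WT means there, and the median log2 difference of all 10 was -0.48. Ryr2 was 2656 against 5533, Myl2 3854 against 8706.5, Tnni3 2094 against 3376, Mybpc3 3849 against 4680 and Pln 6611 against 7273. Col3a1, the largest part of the fibroblast sum in WT, was 127 in that library against 3020. Col1a1, Col1a2, Lum and Postn were lower too, whereas Pdgfra was 159 against 154 and Tcf21 8.69 against 10.5. The part of these shifts in the values below was not tested.

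With all libraries, 0 of 36 members passed the limma test at an adjusted p under 0.05, where 0.202% of the 12855 tested genes did (0.117% higher and 0.0856% lower in Lmna KO). At an unadjusted p under 0.05 there were 4 higher members, Dnajb9, Hspa1a, Hspa1b and Hspb1, and 1 lower, Hsph1. Among all genes 20.8% were under that unadjusted p, 9.42% higher and 11.4% lower. On recovered reads edgeR's quasi-likelihood test called 0 members and 0.156% of genes, and DESeq2 called 3 members and 6.15% of genes. The authors' deposited table gives a false discovery rate under 0.05 for 4 members, all higher in Lmna KO. Of all genes listed there, 5.52% are under 0.05, 3.94% higher and 1.59% lower.

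Without knockout library 5, Hspb1 rose while Hsp90b1 and Pdia6 fell by the limma test. These are 3 of 36 members, where 4.98% of all genes passed, 2.27% rising and 2.71% falling. At an unadjusted p under 0.05 there were 5 higher and 7 lower members, where 22.5% of all genes were under it, 10.2% higher and 12.3% lower. Without that library edgeR called 4 members and 4.85% of genes, and DESeq2 called 7 members and 10% of genes. Median-of-ratios scaling without it gave 3 members and 4.78% of genes by limma. Down-weighting libraries by their spread gave 7 members and 17.7% of genes, and leaving out knockout libraries 2 and 5 gave 6 members and 10.7% of genes. All 36 members had a mean signal of at least 1 and were tested.

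Knockout library 5 held the highest of all 10 values for 28 of 36 members, where it did so for 32.5% of all tested genes. It was at least 2 times the WT mean for 16 members, where this was so for 9.32% of genes. The 8 members for which it was not the highest were Atf6, Eif2ak3, Edem1, Hsph1, Dnajb1, Hspb2, Hspb6 and Hspb8. These are counts in 1 heart and carry no test.

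**Figure D1:**
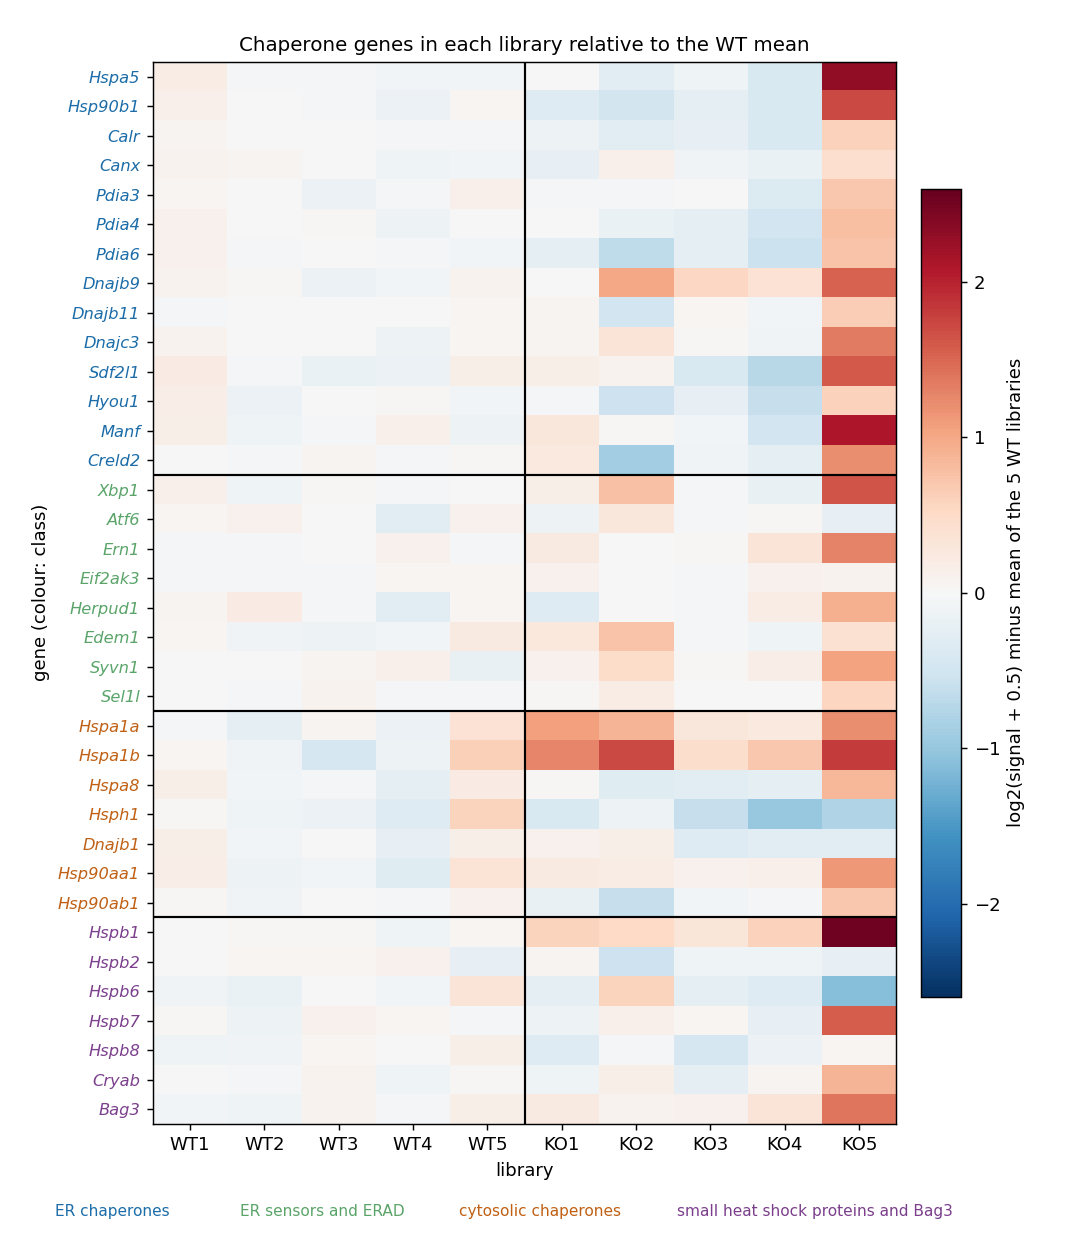
Each cell shows log2(signal + 0.5) of a gene (rows) in a library (columns) minus the mean of the 5 WT libraries, with red above and blue below that mean. Black lines part the 4 classes and the genotypes. The column of knockout library 5 is red for most genes, while ER chaperones in knockout libraries 1 to 4 are mostly pale or blue and Hspb1 is red in all 5 knockouts.

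All 14 ER chaperones lay above the WT mean in knockout library 5, and most lay below it in knockout libraries 2, 3 and 4, with no common direction in knockout library 1. This contrast was not tested. In knockout library 5 all 14 exceeded every WT library, as 40.9% of all tested genes did, and 7 were at least 2 times the WT mean. Their median log2 difference from the WT mean was 0.998 in that library, against a median of -0.02 over all genes. In knockout libraries 1 to 4 the class medians were 0.01, -0.23, -0.10 and -0.39, and those of all genes lay between -0.02 and 0.00. In the comparison without knockout library 5, 12 of 14 members had a negative log2 change, with a class median of -0.21 against -0.01 over all genes. A negative change was found for 52.6% of all genes.

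Hspa5 (chromosome 2, 34772090 to 34776529 in mm10) encodes BiP, the ER member of the 70 kDa chaperones. Its signal was 659, 568, 569, 551 and 549 in WT libraries 1 to 5. It was 579, 470, 535, 436 and 2871 in knockout libraries 1 to 5. The last value was 4.96 times the WT mean of 579 ± 45.5 (SD, n = 5), whereas 3 of the other 4 knockouts lay below every WT library and the 1st within the WT range. The log2 change was 0.30 ± 0.43 (SE, limma adjusted p = 0.701), and -0.20 ± 0.10 without knockout library 5 (limma adjusted p = 0.248).

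Hsp90b1 (chromosome 10, 86690841 to 86705444) encodes GRP94, the ER form of the 90 kDa chaperones. Its WT signal was 461, 424, 410, 382 and 433. The knockout values were 332, 301, 352, 321 and 1377, so the first 4 lay below all WT values and the 5th was 3.26 times the WT mean. Without knockout library 5 Hsp90b1 fell to 77.4% of the WT mean, from 422 ± 29.4 (SD, n = 5) to 327 ± 21.1 (SD, n = 4), a log2 change of -0.37 ± 0.08 (SE, limma adjusted p = 0.0252). Including that library turned the log2 change to 0.05 (limma adjusted p = 0.95). A pseudogene on the opposite strand overlaps 4598 bases of Hsp90b1 in GENCODE release M21, and whether the authors' counting used strand is not given in the sources used here.

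Pdia6, a protein disulfide isomerase that forms and rearranges disulfide bonds, had WT values of 96.1, 88.1, 89.6, 88 and 85.4. In the knockouts it was 75.9, 56.5, 74.5, 60.5 and 149. Libraries 1 to 4 again lay below every WT value. Pdia6 fell there to 74.7% of the WT mean (log2 change -0.43, standard error 0.10, limma adjusted p = 0.031), and with all libraries its log2 change was -0.20 (limma adjusted p = 0.613).

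Calr, the calcium-binding lectin chaperone calreticulin, was the third ER chaperone with no overlap between WT and knockout libraries 1 to 4. Such a separation below WT was found in 3 of 14 ER chaperones and in 7.02% of all genes, while 11.9% of all genes were separated in either direction and 4.89% lay above WT. Calr was 354, 339, 337, 331 and 325 in WT and 307, 278, 289, 257 and 509 in the knockouts. Its log2 change was -0.09 with all libraries (limma adjusted p = 0.777) and -0.26 without knockout library 5 (limma adjusted p = 0.0613), and neither passed. Canx, the membrane-bound relative of calreticulin, was 577, 574, 548, 499 and 519 in WT and 470, 595, 510, 484 and 739 in the knockouts. Libraries 2 and 5 lay above and libraries 1 and 4 below all WT values (log2 change 0.02, limma adjusted p = 0.93, and -0.08 without knockout library 5, limma adjusted p = 0.619).

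Dnajb9 encodes an ER co-chaperone that assists BiP and the degradation of misfolded proteins. Of the 14 ER chaperones it had the largest log2 change with all libraries. Its WT signal was 29.2, 27.9, 24.4, 26.1 and 29.3, and its knockout signal was 27.5, 55.4, 39.6, 35.5 and 79.8. Knockout libraries 2 to 5 exceeded all WT values while the 1st lay among them. The log2 change was 0.69 ± 0.23 (SE, limma adjusted p = 0.151) and 0.48 without knockout library 5 (limma adjusted p = 0.108). The authors' deposited table lists a log2 ratio of 0.80 with a false discovery rate of 0.0218, and DESeq2 on recovered reads gave an adjusted p of 0.0356.

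Manf, a secreted ER stress factor, was 31.0, 25.7, 27.2, 30.4 and 25.4 in WT and 34.2, 28.5, 26.6, 19.7 and 122 in the knockouts. The value in library 5 was 4.37 times the WT mean. In GENCODE release M21 the locus of Manf is overlapped by Dcaf1, over 42681 bases, and by Rbm15b. The locus in the authors' deposited comparison is shorter (chromosome 9, 106887415 to 106891938). Whether reads of these genes were counted for Manf is therefore not known. Sdf2l1, a partner of BiP, was at 3.28 times the WT mean in library 5, from 223 reads there and 45 to 71 reads in WT libraries. Dnajc3, which inhibits PERK and assists BiP, was at 2.57 times and Creld2, an ER stress-inducible protein, at 2.36 times the WT mean in library 5. The 5 remaining ER chaperones, Pdia3, Pdia4, Dnajb11, Hyou1 and Calr, were at 1.5 to 1.73 times the WT mean in that library, and Pdia6 was at 1.67 times. None of these log2 changes passed with all libraries, with limma adjusted p-values of 0.408 to 0.954. Without knockout library 5 the log2 changes were -0.06 for Manf, -0.22 for Sdf2l1, 0.08 for Dnajc3, -0.25 for Creld2, -0.11 for Pdia3, -0.23 for Pdia4 and -0.11 for Dnajb11, with limma adjusted p-values of 0.208 to 0.844. In knockout libraries 1 to 4 Hyou1, which releases ADP from BiP, was 63.9, 45.7, 57.4 and 43.7 against a WT mean of 66.5 ± 5.75 (SD, n = 5), with a log2 change of -0.35 (limma adjusted p = 0.108), and -0.16 with all libraries (limma adjusted p = 0.647).

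Promoters of the members were searched for sequence elements of the stress responses. The members were named as ER stress and heat shock genes, so matches among them only describe the set and were not tested. Windows from 250 bases before to 50 after the gene start were taken from RefSeq (GRCm38.p6) and were present for 28 members. The ER stress response element (ERSE) was searched on both strands as the boxes CCAAT and CCACG with any 9 bases between them. It matched 39 of 32851 windows, or 0.119%. This percentage is of windows, whereas members are counted by gene, with a match in any of their windows. It matched 7 of the 12 ER chaperones with a window, and Syvn1 among the ER degradation genes. The related element ERSE-II, the boxes ATTGG and CCACG with any 1 base between them, matched 0.0365% of windows, Dnajb11 and Herpud1 among them. The 2 motifs were searched as separate patterns, and no window of a member held both. The unfolded protein response element core TGACGTGG matched 0.676% of windows and 0 of 28 members. The matches of ERSE are given below 5′ to 3′ on the strand of the motif, with its fixed letters in capitals, to show how the members differ in the 9 bases between the boxes.
Hspa5: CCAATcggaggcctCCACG
Hsp90b1, distal match: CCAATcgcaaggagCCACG
Hsp90b1, proximal match: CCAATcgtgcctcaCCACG
Calr: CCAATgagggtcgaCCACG
Canx: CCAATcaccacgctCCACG
Pdia6: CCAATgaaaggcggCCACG
Dnajc3: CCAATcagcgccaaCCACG
Creld2: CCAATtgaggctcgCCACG
Syvn1: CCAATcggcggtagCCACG

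The 250 bases before the start of the 3 ER chaperones on which the results turn are given on the strand of the gene, with the fixed letters of each ERSE match, on either strand, in capitals. The Hspa5 match begins 65 bases and the Pdia6 match 98 bases before the gene start. Those of Hsp90b1 begin 212 and 107 bases before it, and the second is on the opposite strand.
Hspa5, chr2:34771840-34772089, plus strand: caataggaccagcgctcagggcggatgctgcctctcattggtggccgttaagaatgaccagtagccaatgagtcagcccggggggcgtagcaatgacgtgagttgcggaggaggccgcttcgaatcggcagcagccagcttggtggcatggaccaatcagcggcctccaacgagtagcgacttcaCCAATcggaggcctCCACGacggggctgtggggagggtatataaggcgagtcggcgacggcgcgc
Hsp90b1, chr10:86705445-86705694, minus strand: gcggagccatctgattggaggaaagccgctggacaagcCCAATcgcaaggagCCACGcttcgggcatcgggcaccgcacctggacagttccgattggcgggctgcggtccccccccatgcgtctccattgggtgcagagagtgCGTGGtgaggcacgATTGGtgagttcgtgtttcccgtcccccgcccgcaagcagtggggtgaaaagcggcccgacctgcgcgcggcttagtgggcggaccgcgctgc
Pdia6, chr12:17266339-17266588, plus strand: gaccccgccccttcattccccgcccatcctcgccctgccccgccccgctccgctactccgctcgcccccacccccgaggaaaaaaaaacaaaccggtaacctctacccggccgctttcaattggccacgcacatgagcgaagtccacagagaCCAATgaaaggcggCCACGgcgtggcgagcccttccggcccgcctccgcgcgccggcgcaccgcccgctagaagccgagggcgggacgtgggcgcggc

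Among members of the ER classes, the 10 with an ERSE or ERSE-II match had log2 differences from the WT mean of 0.45 to 2.31 in knockout library 5, with a median of 0.99. The 9 with a window and no match had differences of 0.10 to 1.63, with a median of 0.79. The ranges overlap widely, and a match of letters is not a measured binding site.

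**Figure D2:**
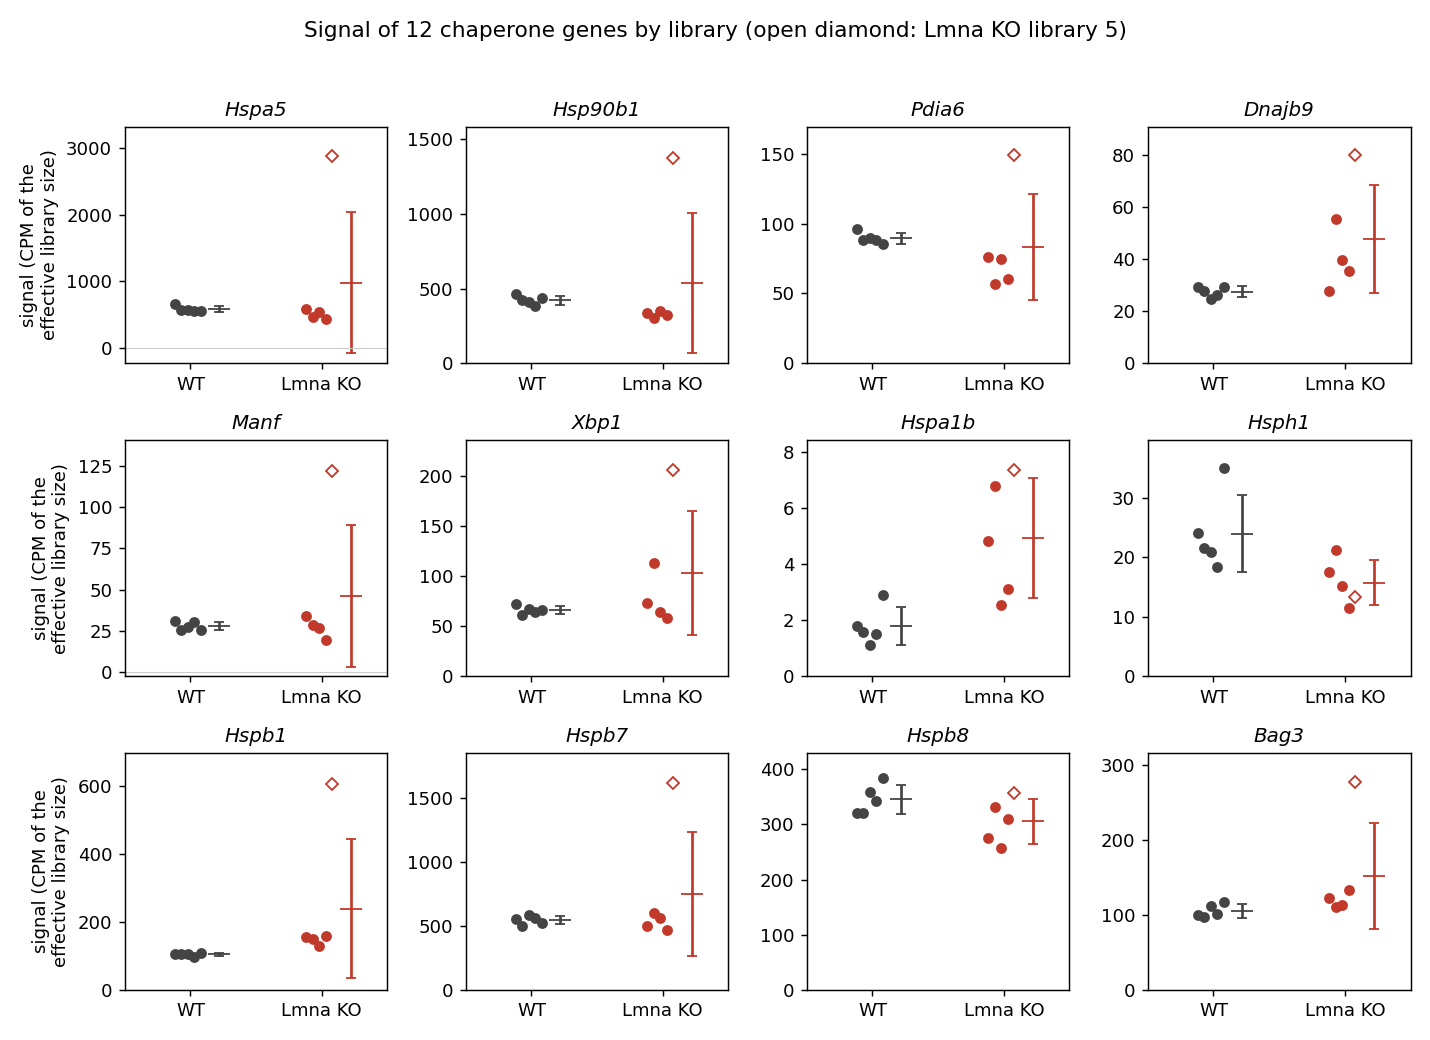
Signal in each library is plotted for 12 genes, with WT in grey and Lmna KO in red, the mean as a horizontal mark and the SD as a bar (n = 5). The open diamond is knockout library 5, which lies far above the other knockouts for Hspa5 (2871), Hsp90b1 (1377), Manf (122), Hspb1 (605) and Hspb7 (1615), and among the other libraries for Hsph1 and Hspb8.

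The 8 ER sensors and degradation genes did not pass in any direction, with or without knockout library 5 (limma, 0 at an unadjusted p under 0.05 in both). Their class median in library 5 was a log2 difference of 0.74, and in knockouts 1 to 4 it was 0.12, 0.24, -0.03 and 0.06. Xbp1, the transcription factor spliced by IRE1, was 72.6, 61.0, 67.2, 64.2 and 66.1 in WT. It was 73.1, 113, 63.6, 58.0 and 206 in the knockouts, so library 5 was at 3.11 times the WT mean and library 2 was also above all WT values. The log2 change was 0.46 ± 0.29 (SE, limma adjusted p = 0.365). It was 0.17 without knockout library 5 (limma adjusted p = 0.575) and -0.03 without knockout libraries 2 and 5. Gene-level values do not tell spliced from unspliced Xbp1.

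Ern1, which encodes IRE1 alpha, was 15.7 to 17.8 in WT and 19.4, 16.4, 16.7, 20.7 and 40.7 in the knockouts, 2.49 times the WT mean in library 5. Its log2 change was 0.38 (limma adjusted p = 0.316), and 0.15 without that library (limma adjusted p = 0.359). The other pair of sensor genes showed no such value. Atf6 was 203, 210, 197, 161 and 210 in WT and 178, 238, 191, 198 and 169 in the knockouts, and library 5 was the lowest knockout. Its log2 change was -0.01 with a 95% interval of -0.27 to 0.24 (limma adjusted p = 0.959), and 0.04 without knockout library 5 (limma adjusted p = 0.871). Eif2ak3, which encodes PERK, was 21.9 to 23.8 in WT and 22.1 to 24.8 in the knockouts, with a log2 change of 0.06 and a 95% interval of -0.12 to 0.23 (limma adjusted p = 0.69), and 0.05 without knockout library 5 (limma adjusted p = 0.74).

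The degradation genes act after recognition of a misfolded protein, by carrying it back to the cytosol and tagging it with ubiquitin. Herpud1, an ER membrane scaffold of that machinery, was 159, 174, 146, 123 and 157 in WT and 119, 152, 146, 172 and 289 in the knockouts. Syvn1, the ubiquitin ligase HRD1, was 10.5 to 13.2 in WT and 13.1, 16.8, 12.2, 13.5 and 25.3 in the knockouts. Its partner Sel1l was 113 to 124 in WT and 118, 133, 115, 116 and 171 in the knockouts. For these 3 genes library 5 was the highest of all, at 1.90, 2.11 and 1.47 times the WT mean. Edem1, a lectin that delivers glycoproteins for degradation, was instead highest in library 2, at 47.9 against 25.8 to 33.8 in WT, and 37.6 in library 5. With all libraries the log2 changes were 0.15 for Herpud1, 0.37 for Syvn1, 0.15 for Sel1l and 0.26 for Edem1 (limma adjusted p-values 0.259 to 0.685). They were -0.05, 0.20, 0.05 and 0.22 in the same order without knockout library 5 (limma adjusted p-values 0.311 to 0.854).

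Of 43 further ER folding and degradation genes tested, 0 passed with all libraries or without knockout library 5. Their median log2 change was 0.09, and 0.03 without that library, and 3, namely P4hb, Sec61a1 and Tmbim6, lay above WT in all knockouts, against 4.07% of all genes. P4hb, the founding disulfide isomerase, was 274 to 294 in WT and 341, 299, 309, 304 and 576 in the knockouts (log2 change 0.31, limma adjusted p = 0.297, and 0.14 without knockout library 5, limma adjusted p = 0.25). Of the 43, 3 were at least 2 times the WT mean in library 5, against 9.32% of all genes. The median log2 difference of the list in library 5 was 0.09. Of 7 genes of the PERK branch 0 passed with all libraries and Atf3 rose without library 5, where 2.27% of all genes rose. Atf3 went from 7.91 ± 2.78 (SD, n = 5) to 21.4 ± 8.49 (SD, n = 4), with a limma adjusted p of 0.0313 (0.0787 with all libraries). In that list 3 genes, Trib3, Chac1 and Atf3, lay above WT in all knockouts, and the median log2 change was 0.64, and 0.36 without knockout library 5. Ppp1r15a, which restores translation after PERK signalling and was picked after its values were seen, averaged 23.3 ± 1.93 in WT (SD, n = 5) and was 31.3, 19.5, 34.6, 38.1 and 128 in the knockouts (limma adjusted p = 0.263, and 0.223 without library 5).

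**Figure D3:**
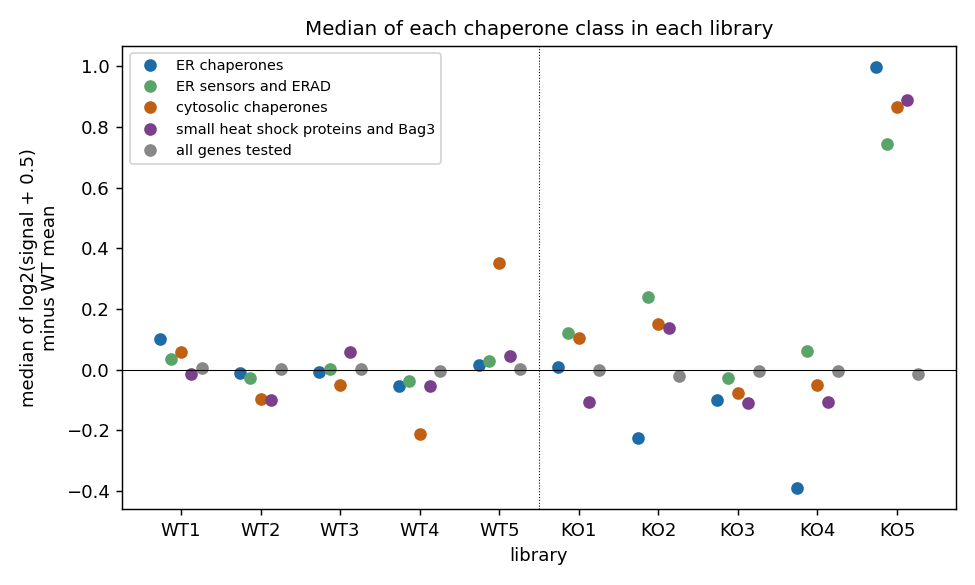
For each library the median over the genes of a class of log2(signal + 0.5) minus the WT mean is plotted, with all 12855 tested genes in grey. In knockout library 5 the 4 classes lie between 0.743 and 0.998 while all genes are at -0.02, and in knockout library 4 the ER chaperones are at -0.39.

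Among the 7 cytosolic chaperones, the inducible genes Hspa1b and Hspa1a had the largest positive log2 changes, and neither passed with all libraries. Hspa1b (chromosome 17, 34956429 to 34959238) was 1.81, 1.58, 1.14, 1.53 and 2.90 in WT, from 17 to 53 reads per library. In the knockouts it was 4.83, 6.80, 2.54, 3.11 and 7.36, from 49 to 145 reads. The 4 other knockouts lay above every WT value, and the 3rd lay below the 5th WT library only. The log2 change was 1.19 ± 0.29 (SE, limma adjusted p = 0.0972), and it was 1.03 without knockout library 5 (limma adjusted p = 0.0516). The authors' deposited table lists a log2 ratio of 1.45 for Hspa1b with a false discovery rate of 0.00173.

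Hspa1a (chromosome 17, 34969359 to 34972156) was 1.55, 1.30, 1.74, 1.43 and 2.25 in WT. It was 3.98, 3.40, 2.13, 2.04 and 4.42 in the knockouts, with a log2 change of 0.74 (limma adjusted p = 0.119), and 0.63 without knockout library 5 (limma adjusted p = 0.0947). The authors' deposited table lists 0.95 with a false discovery rate of 0.0318. The genes are near-identical copies, and 62.3% of the stretches of 50 bases in the Hspa1b transcript of GENCODE release M21 also occur in Hspa1a, so the split of reads between them is uncertain. If reads matching both were left out of the counts, their sum is too low as well. Summed as 1 gene, their signal was 3.44 ± 0.975 in WT and 8.12 ± 3.12 in Lmna KO (SD, n = 5 each), with a log2 change of 1.08 (limma adjusted p = 0.0971). Without knockout library 5 the log2 change of the sum was 0.93 and it passed with a limma adjusted p of 0.0492. A protein-coding gene on the opposite strand, Gm20481, overlaps 2225 bases of Hspa1a in GENCODE release M21, and whether counting used strand is not known.

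Hspa8, the constitutive partner of these genes that folds and ferries client proteins, was 2287, 1953, 1987, 1738 and 2401 in WT. It was 2094, 1655, 1686, 1745 and 3757 in the knockouts, and only library 5, at 1.81 times the WT mean, stood outside on the high side. Hsp90aa1, the stress-responsive cytosolic HSP90, was 237, 191, 200, 169 and 268 in WT and 247, 239, 227, 229 and 458 in the knockouts. Hsp90ab1, the constitutive HSP90, was 908, 830, 881, 853 and 953 in WT and 776, 585, 838, 854 and 1444 in the knockouts. The log2 changes of Hspa8, Hsp90aa1 and Hsp90ab1 were 0.01, 0.36 and -0.04 (limma adjusted p-values 0.983, 0.32 and 0.92). They were -0.20, 0.16 and -0.23 without knockout library 5 (limma adjusted p-values 0.333, 0.453 and 0.259).

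Hsph1 and Dnajb1, an HSP110 exchange factor and an HSP40 co-chaperone that are both induced by HSF1, did not share the high value in library 5. Hsph1 was 24.0, 21.5, 20.8, 18.3 and 34.9 in WT and 17.5, 21.1, 15.1, 11.5 and 13.3 in the knockouts, where 4 of 5 lay below all WT libraries. Its log2 change was -0.59 ± 0.19 (SE, limma adjusted p = 0.143), and -0.53 without knockout library 5 (limma adjusted p = 0.139). Dnajb1 was 22.2 to 28.6 in WT and 27.8, 28.7, 20.4, 21.4 and 20.9 in the knockouts (log2 change -0.13, limma adjusted p = 0.567, and -0.09 without knockout library 5, limma adjusted p = 0.724). The 2nd to 4th WT libraries were lower than the 1st and 5th for Hspa8, Hsph1, Dnajb1 and Hsp90aa1 alike, and the median of the class was 0.35 in the 5th WT library and -0.21 in the 4th.

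Of 45 further cytosolic chaperones and HSF factors, 0 passed with all libraries, and Hspa4l, Bag2 and Fkbp4 fell without knockout library 5. By the same test 2.71% of all genes fell without that library. Fkbp4, an HSP90 co-chaperone, was 255 to 314 in WT and 196, 113, 191, 199 and 82.3 in the knockouts, with no overlap (log2 change -0.93, limma adjusted p = 0.0972, and -0.72 without knockout library 5, limma adjusted p = 0.0263). In this list 5 genes lay below WT in all knockouts, against 6.18% of all genes, and its median log2 change was -0.07, and -0.12 without knockout library 5. Among 11 mitochondrial chaperones 0 passed with all libraries, 5 lay below WT in all knockouts and the median log2 change was -0.31, and -0.30 without library 5. Hspd1, the mitochondrial HSP60, and Dnaja3 fell without library 5 (limma adjusted p = 0.0173 and 0.0175, against 0.122 and 0.0983 with it), Hspd1 from 410 to 503 in WT to 250 to 339 in knockouts 1 to 4, with 131 in the 5th.

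In the small heat shock protein class Hspb1 was the member whose values separated the genotypes. Hspb1 (chromosome 5, 135887919 to 135889563) encodes HSP27, a small chaperone that binds actin filaments and unfolded proteins. It was 104, 106, 106, 95.5 and 107 in WT and 155, 148, 128, 158 and 605 in the knockouts, so every knockout library lay above every WT library. This was so for 1 of 36 members, where 10.3% of all tested genes were separated in either direction. Without knockout library 5 Hspb1 rose to 142% of the WT mean, from 104 ± 4.70 (SD, n = 5) to 147 ± 13.4 (SD, n = 4), with a log2 change of 0.50 ± 0.08 (SE, limma adjusted p = 0.00893). With knockout library 5 included it was 0.91 ± 0.35 and did not pass (limma adjusted p = 0.184). Library 5 was at 5.83 times the WT mean, the highest such ratio among the 36 members. The authors' deposited table lists a log2 ratio of 1.2 for Hspb1 with a false discovery rate of 0.0189.

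The 250 bases before the start of Hspb1 are shown because this gene alone separated the genotypes with all libraries. The heat shock element was searched on both strands as 3 units, GAA, TTC, GAA or TTC, GAA, TTC, each 2 bases apart. With no mismatch allowed, it matched 0.603% of RefSeq windows and 1 member, Hsph1. An element with a differing letter would not be found by this search. The pair of units GAANNTTC or TTCNNGAA, which the longer element contains, matched 15.1% of windows and 8 of 28 members, namely Hspb1, Hspb6, Hspb8, Bag3, Hspa1a, Hspa1b, Hsph1 and Eif2ak3. In Hspb1 it occurs at 2 places, starting 117 and 97 bases before the gene start, and capitals mark its fixed letters.
Hspb1, chr5:135887669-135887918, plus strand: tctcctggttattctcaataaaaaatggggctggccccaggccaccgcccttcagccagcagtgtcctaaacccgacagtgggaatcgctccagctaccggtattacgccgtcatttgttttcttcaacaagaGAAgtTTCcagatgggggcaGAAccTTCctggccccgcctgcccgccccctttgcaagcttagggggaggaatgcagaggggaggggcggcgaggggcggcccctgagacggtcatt

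Hspb7, a small heat shock protein enriched in heart, and Cryab, alpha B-crystallin, which protects desmin, had their highest values in knockout library 5, and knockout library 2 also lay above every WT value for both. Hspb7 was 553, 499, 584, 564 and 524 in WT and 497, 599, 560, 468 and 1615 in the knockouts, 2.96 times the WT mean in library 5. Cryab was 394, 387, 420, 363 and 403 in WT and 365, 436, 331, 413 and 728 in the knockouts, 1.85 times the WT mean in library 5. The log2 changes of Hspb7 and Cryab were 0.28 and 0.15 (limma adjusted p = 0.58 and 0.644), and -0.04 and -0.03 without knockout library 5 (limma adjusted p = 0.822 and 0.866). Bag3, the co-chaperone that links small heat shock proteins to autophagy, was 99.4, 96.7, 111, 101 and 117 in WT. It was 123, 111, 113, 133 and 278 in the knockouts, where libraries 1, 4 and 5 lay above all WT values (log2 change 0.43, limma adjusted p = 0.282). Without library 5 its log2 change was 0.19 (limma adjusted p = 0.208).

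The other members of the class were not high in library 5. Hspb8, the partner of Bag3, was 321, 321, 359, 342 and 384 in WT and 275, 332, 256, 309 and 357 in the knockouts (log2 change -0.18, limma adjusted p = 0.351, and -0.24 without knockout library 5, limma adjusted p = 0.154). Hspb6, also called HSP20, was 86.3 to 123 in WT and 82.8, 147, 81.6, 77.7 and 45.0 in the knockouts, so library 2 was the highest and library 5 the lowest of all (log2 change -0.27, limma adjusted p = 0.525, and -0.06 without knockout library 5, limma adjusted p = 0.868). Hspb2 was 41.0 to 51.1 in WT and 49.5, 32.7, 43.8, 43.9 and 40.7 in the knockouts (log2 change -0.18, limma adjusted p = 0.378, and -0.17 without knockout library 5, limma adjusted p = 0.418). Hspb2 and Cryab lie head to head on chromosome 9. In GENCODE release M21 they overlap by 1030 bases on opposite strands, and reads within the overlap cannot be parted without strand. In library 5 Cryab and Hspb2 were at 1.85 and 0.859 times their WT means.

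**Figure D4:**
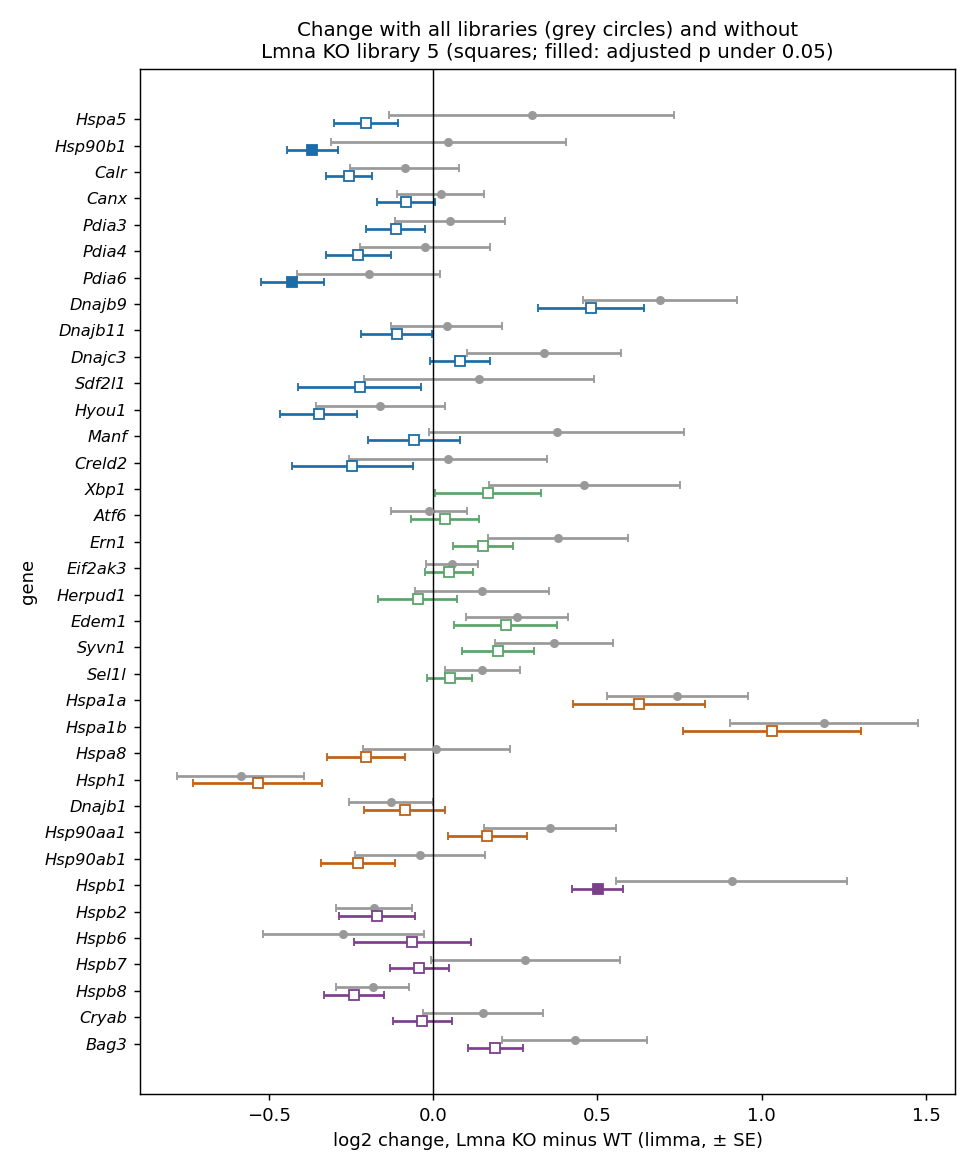
The log2 change of each gene, Lmna KO minus WT with its standard error, is shown with all libraries (grey circles) and without knockout library 5 (squares, coloured by class and filled where the adjusted p was under 0.05). Hspb1, Hsp90b1 and Pdia6 are filled. For all 14 ER chaperones the square lies to the left of the circle, as it must where library 5 is the highest knockout.

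Of 8 further small heat shock proteins and partners, 6 were tested and 0 passed with or without knockout library 5 (limma), with a median log2 change of -0.35, and -0.22 without that library. The list was split in knockout library 5, by values added after they were seen. Flnc was 2767 there against a WT mean of 545 and Des 4108 against 1241. Ttn was 39169 against 75980, Synpo2 44.2 against 114, Hspb3 1.07 against 7.55 and Hspb11 2.95 against 4.06.

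Levels within WT hearts were compared per kilobase of exon, taken from GENCODE release M21 on the same build. Signal per kilobase was highest for Hspa8, at 866 ± 112 (SD, n = 5), followed by Hsp90ab1 at 351 ± 19.1 and Cryab at 305 ± 16.4. The ranges of these 3 over WT libraries did not overlap. Hspb7 at 197 ± 12.1 and Hspb8 at 190 ± 14.7 came next, and their ranges overlapped. Calr, Hspa5 and Hsp90b1 led the ER chaperones at 154 ± 4.97, 154 ± 12.1 and 149 ± 10.4, also with overlapping ranges. Herpud1 led the ER sensors and degradation genes at 77.8 ± 9.74. The lowest were Hspa1b and Hspa1a, at 0.639 ± 0.238 and 0.556 ± 0.125, with overlapping ranges. These levels are too low if reads matching both genes were left out of the counts, which is not known.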

How the data were processed

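Cardiac RNA of 5 WT and 5 Lmna KO mice was measured, grouped by the genotype in the labels. TopHat2, Cufflinks and edgeR with build mm10 are named in the submitters' processing notes. The read counter, like its use of strand, is not given in the sources used here. Signal values were deposited by the authors as CPM scaled to effective library sizes by the name of the sheet, in 14647 rows. Their deposited comparison of 14646 rows holds signal levels, the log2 ratio, and p-value with false discovery rate. The 21 rows named by a date, 0.134% to 0.204% of reads, were left out.

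Deposited values were whole multiples of 1 read in 100% of cases (tolerance 0.01 read), which gave 15259545 to 22146030 reads per library and sets the counting precision. The test was limma 3.58.1 on log2(signal + 0.5), with genotype alone and an intensity trend. P-values were two-sided and adjusted by Benjamini-Hochberg over the 12855 genes whose mean signal reached 1, with a threshold of 0.05. Fold changes on this scale understate those of low genes. Alternatives changed the pseudocount, filter, scaling, covariates, libraries, or used edgeR 4.0.16 and DESeq2 1.42.0 on recovered reads. The limma fit was tested on simulated reads. The members, lists and tests were chosen with earlier results of these data known.

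Named in full were members past the threshold with or without knockout library 5, members with separated genotypes, the 2 most abundant of each class, and Hspa5, Xbp1, Hspa1a and Hspa1b. Values of other members were added after they were seen. No pair of libraries within a group agreed to sampling noise (lowest chi-square 5.09 per degree of freedom). The labels give separate animals, so p-values reflect the spread between these mice.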

Additional observations from a re-analysis of the deposited data

Results flagged for a closer look

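Of 72 sets of 5 values, a member in a genotype, 19 held a library whose gap to the nearest other exceeded Dixon's value of 0.71 of the range, a rule that chance meets in about 1 of 20 sets. In 15 of the 36 knockout sets the isolated value was the high one of knockout library 5, where this was so for 8.34% of all tested genes. These were, among the ER chaperones, Hspa5 (2871, others at most 579), Hsp90b1 (1377, others at most 352), Calr (509), Pdia3 (179), Pdia6 (149), Dnajc3 (240), Sdf2l1 (11.3) and Manf (122, others at most 34.2). Ern1 (40.7) was the sensor in this set. The heat shock genes were Hspa8 (3757), Hsp90aa1 (458), Hspb1 (605, others at most 158), Hspb7 (1615), Cryab (728) and Bag3 (278).

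In WT the isolated values were Hspa5 in library 1 (659, others 549 to 569), Ern1 in library 4 (17.8, others 15.7 to 16.2), Atf6 in library 4 (161, others 197 to 210) and Hspb1 in library 4 (95.5, others 104 to 107).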

How the results depend on the processing

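With all libraries 26 genes and 0 members were called. Leaving out 1 library at a time gave 6 to 640 genes, 0 to 3 members and 1 to 4 members with separated genotypes, with the highest of each when Lmna KO library 5 was left out. Genes and members called were 1370 and 6 without Lmna KO libraries 2 and 5, 2280 and 7 with library weights, 786 and 3 with DESeq2, and 287 and 1 at an adjusted p under 0.1. A minimum mean signal of 5 gave 14 genes, and an adjusted p under 0.01 gave 6. Chosen after seeing the data, fits without Lmna KO library 5 gave 623 and 4 with edgeR, 1286 and 7 with DESeq2, and 614 and 3 with median-of-ratios scaling. Lmna kept its call in 26 of 26 alternatives. Of 935 member values under alternatives, 810 kept direction and side of the threshold, 28 came past it and 97 changed sign, 5 of them past the threshold, all for Hsp90b1. Why values moved was not tested. The sign changed, leaving out 1 library at a time, within ranges of the log2 change of -0.203 to 0.477 for Hspa5, -0.368 to 0.179 for Hsp90b1, -0.082 to 0.081 for Canx, -0.114 to 0.151 for Pdia3, -0.227 to 0.095 for Pdia4, -0.111 to 0.175 for Dnajb11, -0.223 to 0.356 for Sdf2l1, -0.058 to 0.593 for Manf, -0.246 to 0.284 for Creld2, -0.087 to 0.036 for Atf6, -0.047 to 0.272 for Herpud1, -0.204 to 0.091 for Hspa8, -0.228 to 0.098 for Hsp90ab1, -0.042 to 0.404 for Hspb7, -0.033 to 0.252 for Cryab. The log2 values that changed sign were -0.171 for Hspa5, -0.33 for Hsp90b1, -0.154 for Canx, -0.141 for Pdia3, -0.003 for Dnajc3, -0.327 for Sdf2l1, -0.089 for Manf, -0.024 for Creld2, -0.032 for Xbp1, -0.067 for Herpud1, -0.168 for Hspa8, -0.102 for Hspb7 and -0.094 for Cryab without Lmna KO libraries 2 and 5. With library weights they were -0.138 for Hspa5, -0.301 for Hsp90b1, -0.138 for Canx, -0.077 for Pdia3, -0.318 for Sdf2l1, -0.041 for Manf, -0.05 for Creld2, -0.088 for Herpud1, -0.213 for Hspa8, -0.017 for Hspb7 and -0.137 for Cryab. With edgeR they were 0.058 for Pdia4, 0.001 for Atf6 and 0.033 for Hsp90ab1, and with DESeq2 0.059 for Pdia4, 0 for Atf6 and 0.033 for Hsp90ab1. Without Lmna KO library 5 they were, by edgeR, -0.187 for Hspa5, -0.359 for Hsp90b1, -0.067 for Canx, -0.101 for Pdia3, -0.085 for Dnajb11, -0.2 for Sdf2l1, -0.025 for Manf, -0.181 for Creld2, 0.05 for Atf6, -0.033 for Herpud1, -0.197 for Hspa8, -0.026 for Hspb7 and -0.015 for Cryab. By DESeq2 they were -0.186 for Hspa5, -0.358 for Hsp90b1, -0.066 for Canx, -0.1 for Pdia3, -0.084 for Dnajb11, -0.2 for Sdf2l1, -0.024 for Manf, -0.182 for Creld2, 0.05 for Atf6, -0.033 for Herpud1, -0.197 for Hspa8, -0.025 for Hspb7 and -0.014 for Cryab. After median-of-ratios scaling they were -0.198 for Hspa5, -0.363 for Hsp90b1, -0.077 for Canx, -0.109 for Pdia3, -0.106 for Dnajb11, -0.219 for Sdf2l1, -0.054 for Manf, -0.241 for Creld2, 0.041 for Atf6, -0.042 for Herpud1, -0.2 for Hspa8, -0.037 for Hspb7 and -0.028 for Cryab. Same-numbered libraries gave correlations of deviations of -0.134 to 0.182. The knockout deviations are taken from a mean that includes library 5, so these values cannot decide whether same-numbered libraries share an origin. The replicate block gave 35 genes, 29 higher and 6 lower in Lmna KO, and 0 members. Depth limits Hspa1a and Hspa1b most, at 17 to 53 reads per WT library.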
